A study of Mus musculus with 40 samples.

Results

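The heart of a 1-week-old mouse was set against the kidney and the lung of the same age, to find the transcripts that mark the heart before weaning. The members are 13 arrays of the 40 in the series: 4 of heart, 5 of kidney and 4 of lung. A gene counted as part of the heart profile only where heart differed in the same direction from each of the other organs. Heart array 5 and lung array 4 of 1 week were left out, because each carried the transcripts of the other organ.

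The series profiled organs of juvenile mice during and after rapid growth on Affymetrix whole-genome expression arrays, in groups of 5 arrays. All animals were male C57BL/6 mice, and no treatment, transgene or deletion is named for any group. The groups used here were heart, kidney and lung at 1 week, and, as a later age measured on other arrays, the same organs at 4 weeks with 5 arrays each. RNA came from bulk organ, so fewer cells of a type and less RNA per cell cannot be told apart. The study's description speaks of 5 animals per group for kidney and lung, and nothing states whether the heart arrays came from separate animals or whether organs were taken from the same animals. P-values therefore measure the spread between these arrays. Each difference below is on the log2(signal + 16) scale, which understates the fold of dim genes. Where the other organ's signals lie below 117.9, the level a group mean had to reach for testing, they cannot be told from background, and a fold against them depends on the offset of 16 and is no exact ratio. No gene's signal was set against another gene's.

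The labels were checked against the defining transcript of each organ. Myh6, the alpha heavy chain of cardiac myosin, had signals from 36521 to 44803 on the 4 hearts. Umod, the uromodulin of the thick ascending limb, ran from 10646 to 15693 on the 5 kidneys and from 5.6 to 10.2 on the hearts. Sftpc, the surfactant protein C of the alveolar epithelium, ran from 23328 to 28922 on the 4 lungs, but its hearts spanned 125 to 1072.5, against 82.5 to 187 on the kidneys. The array labelled heart 5 had a Sftpc signal of 27187 and a Myh6 signal of 2396, and the array labelled lung 4 had 1982.5 and 36022. Over the 784 genes at least 2-fold higher in heart, the array labelled lung 4 lay nearest the heart mean for 774, and the array labelled heart 5 lay nearest the lung mean for 639. With all 15 arrays of 1 week as labelled, no gene passed the adjusted threshold of the limma fit in both comparisons, while 793 genes were above and 963 below both organs at an unadjusted p under 0.05.

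Heart array 1 stood apart from hearts 2 to 4. Its median signal was 135.1, against 169.2 to 184 on the others, and its spiked poly-A controls were at 12.40 on the log2 scale, against 11.31 to 11.65. Kidney array 1 had the lowest median of the kidneys, 141.8 against 166.9 to 210.9, and its deviations from the group means correlated with those of heart array 1 over the genes (Pearson r 0.44, a description). Heart array 1 and the kidneys also share a letter case in the sample descriptions that hearts 2 to 4 and the lungs do not have. What that spelling stands for is not stated, and its part in the results was not tested beyond the values given below. As a block in the fit of 1 week, it sets heart 1 alone against the kidneys and hearts 2 to 4 against the lungs. Kidney array 1 also had the highest mean over the 14 liver genes tested, 10.75 (log2) against 8.32 to 9.56 on the other kidneys. Its signal of Alb, albumin, was 11531, against 451 to 2921 on the others. The source of these transcripts was not tested.

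Heart muscle contracts through sarcomeres, in which thick filaments of myosin pull on thin filaments of actin that are regulated by the troponin complex and tropomyosin and anchored at the Z-disc. Each beat starts with calcium that enters the cell and releases more calcium from the sarcoplasmic reticulum, which then pumps it back. Around birth the rodent heart exchanges fetal for adult isoforms of several contractile proteins and turns from glucose to fatty acids as its main fuel, while its muscle cells leave the cell cycle.

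Short stretches upstream of 5 genes of the profile are shown, because such windows are where the letters of muscle regulatory motifs were searched. They are the 250 bases before the RefSeq start of each gene in the GRCm38.p6 build, printed 5′ to 3′ along the gene. Capitals mark matches to the motifs searched on both strands: the TATA box, the MCAT element, a GATA site, the CArG box and the MEF2 site. The TATA box was searched as the letters TATAAA, which many promoters carry near the start. The MCAT element, bound by TEAD factors in muscle genes, was searched as CATTCC. For the GATA site, bound by Gata4 and its relatives, the letters searched were AGATAA. The CArG box is the site of serum response factor. A MEF2 site can contain the letters of a TATA box, and the 10-letter sites are symmetric, so a match on both strands was counted as 1 position.
Myl3, chr9:110763428-110763677, plus strand: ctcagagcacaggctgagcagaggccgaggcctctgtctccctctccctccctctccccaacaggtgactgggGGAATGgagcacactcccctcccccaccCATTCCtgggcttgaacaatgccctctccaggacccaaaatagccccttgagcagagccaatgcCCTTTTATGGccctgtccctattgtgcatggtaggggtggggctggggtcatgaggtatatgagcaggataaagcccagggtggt
Casq2, chr3:102086165-102086414, plus strand: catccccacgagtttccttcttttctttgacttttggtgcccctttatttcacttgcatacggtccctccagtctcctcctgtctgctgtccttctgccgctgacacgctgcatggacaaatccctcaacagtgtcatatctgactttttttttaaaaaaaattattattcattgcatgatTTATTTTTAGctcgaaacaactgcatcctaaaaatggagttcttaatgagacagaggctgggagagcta
Myoz2, chr3:123034988-123035237, minus strand: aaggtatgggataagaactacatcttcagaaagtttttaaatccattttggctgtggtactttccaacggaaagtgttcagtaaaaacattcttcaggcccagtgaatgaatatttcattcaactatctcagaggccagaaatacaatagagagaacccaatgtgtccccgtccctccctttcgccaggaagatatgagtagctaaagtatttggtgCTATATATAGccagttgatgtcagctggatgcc
Ttn, chr2:76982548-76982797, minus strand: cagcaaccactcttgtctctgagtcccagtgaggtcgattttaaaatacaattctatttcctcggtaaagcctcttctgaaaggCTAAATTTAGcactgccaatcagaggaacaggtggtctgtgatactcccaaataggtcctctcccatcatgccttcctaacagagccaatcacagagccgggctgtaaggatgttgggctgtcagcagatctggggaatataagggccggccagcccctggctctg
Nppa, chr4:148000472-148000721, plus strand: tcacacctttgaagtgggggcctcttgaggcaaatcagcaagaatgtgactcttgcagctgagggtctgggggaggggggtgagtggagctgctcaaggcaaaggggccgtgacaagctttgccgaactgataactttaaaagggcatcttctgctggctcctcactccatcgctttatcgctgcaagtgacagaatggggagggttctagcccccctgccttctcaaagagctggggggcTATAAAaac

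Myl3 encodes the ventricular essential light chain of myosin, and its window held a CArG box 85 to 76 bases before the start and 2 MCAT elements. The windows of Casq2, Myoz2 and Ttn each held 1 MEF2 site, at 69, 33 and 166 bases before the start, and that of Nppa held a TATA box. Of the 92 genes at least 16-fold higher in heart than in both organs, 73 had windows in the table, 96 in all. A MEF2 site was found in 10.4% of these windows, against 1.75% of the 14622 windows of genes tested and 2.92% of all 32851 windows. The CArG box was in 5.21% of them, against 1.2% and 1.47%, which is 5 windows of 4 genes, since overlapping windows of Ldb3, a Z-disc adaptor, were counted separately. The MCAT element was in 19.8% (11% and 12.6%), the GATA site in 17.7% (6.4% and 9.99%) and the TATA box in 16.7% (7.58% and 12.4%). Over the 820 windows of genes at least 2-fold higher, shares were 4.51% (MEF2), 2.44% (CArG), 13.7% (MCAT), 7.2% (GATA) and 10.2% (TATA). Over the 745 windows of genes at least 2-fold lower they were 1.21%, 1.34%, 13.2%, 6.98% and 8.72%, in the same order. All 5 windows printed hold a match, while those of other steep genes, such as Actn2, Mb and Ckm, hold none. These are counts of letters in the windows, not of bound factors.

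Among 14309 genes tested at 1 week, 1757 were higher in heart than in both kidney and lung (12.3% of those tested) and 2188 were lower (15.3%), by limma with a Benjamini-Hochberg adjusted p under 0.05 in each comparison. At least 2-fold differences from both were found for 784 higher genes (5.48%) and 754 lower genes (5.27%). The steepest differences ran upward: 92 genes were at least 16-fold higher and 27 at least 16-fold lower, and 17 were at least 64-fold higher against 3 lower. Of the 784, all 4 heart arrays lay above all 9 other arrays for 766, and of the 754, all lay below for 667, where 11% and 11.7% of all genes tested had the hearts wholly above or below. These genes were selected by the same difference, so nothing is read from it. The split depends on the scaling. With each array centred on its median the calls were 2502 higher and 1334 lower (65.2% higher, against 44.5% as deposited), and the 2-fold calls 1024 and 555 (64.9%, against 51%), since the centring moved the median difference over all genes from -0.06 to 0.16 against kidney and from -0.14 to 0.04 against lung. Among the 784 genes, the smaller of both differences was that from lung for 376 and that from kidney for 408.

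**Figure D1:**
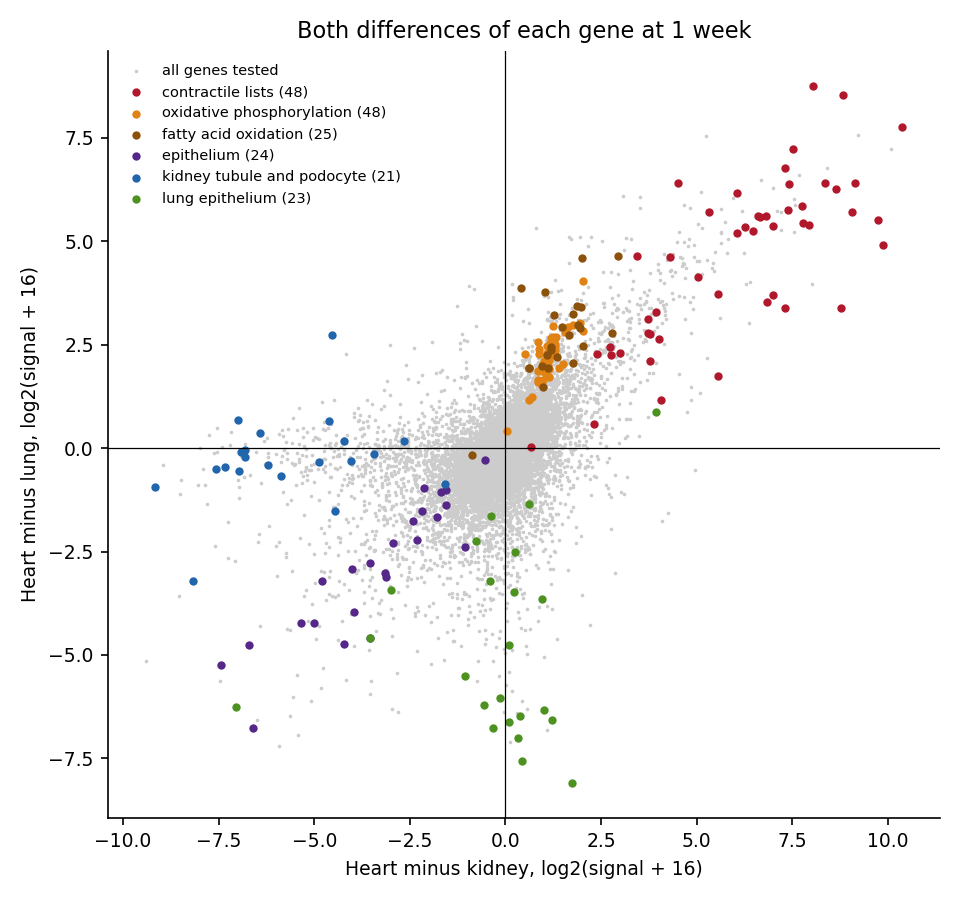
Each point is a gene tested at 1 week, with the heart minus kidney difference on the horizontal axis and the heart minus lung difference on the vertical axis, both in log2(signal + 16); colours mark gene lists with the number of their genes tested. The contractile genes spread to the upper right, up to 10.37 against kidney (Myl3) and 8.77 against lung (Myl2), the oxidative phosphorylation genes lie in a narrow cloud with medians of 1.13 and 2.28, and the epithelial genes lie to the lower left.

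The thick filament of myosin and its partners gave the most uniform group. All 10 genes listed were higher in heart, with a median difference of 6.91 from kidney and 4.30 from lung, against -0.06 and -0.14 over all genes tested. Myl2, the regulatory light chain of ventricular myosin, had signals of 52247, 38239, 37458 and 38519 on hearts 1 to 4, from 62.4 to 325 on the kidneys and from 34.7 to 110 on the lungs. The groups were far apart, with heart 1 above the other hearts, and the differences were 8.04 ± 0.41 (SE) from kidney and 8.77 ± 0.44 from lung, or 262-fold and 435-fold (limma, adjusted p = 1.38e-09 and 1.58e-09). Myl3 had heart signals of 49539, 37690, 39450 and 41204, kidney signals from 3.5 to 46.2 and lung signals from 102 to 305. The differences were 10.37 ± 0.34 and 7.77 ± 0.36, with all kidneys below the level needed for testing. Mybpc3, the myosin-binding protein C of heart, had a mean of 27680 ± 1657 (SD, n = 4), 76.3-fold above kidney and 40.8-fold above lung, and Mylk3, the kinase of the cardiac regulatory light chain, differed by 5.32 and 5.71 on the log2 scale.

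Myosin heavy chains showed the array that stands apart. Myh6 had lung signals of 611, 1506, 1868 and 1592 and kidney signals from 10.8 to 86.9, and its differences were 9.87 ± 0.37 from kidney and 4.90 ± 0.39 from lung. Myh7, the beta heavy chain that predominates in the fetal mouse ventricle, had heart signals of 1182, 9007, 8727 and 8297, kidney signals from 6.7 to 70.1 and lung signals from 246.5 to 623. Heart 1 was thus low in Myh7, though still above every kidney and lung. The differences were 6.83 ± 0.56 and 3.53 ± 0.59 (limma, adjusted p = 1.91e-07 and 0.000224), and 7.54 and 4.25 without heart 1.

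The thin filament followed, with 9 of 10 genes higher in heart (medians 7.16 from kidney and 4.55 from lung). Tnni1, the slow skeletal troponin I that the fetal heart uses, lay below the level needed for testing on every kidney and lung of this age. Its hearts were at 17264, 17501, 19287 and 22089, its kidneys between 10.3 and 83.9 and its lungs between 10.4 and 112. No array of another organ came near the hearts, and the differences were 8.83 ± 0.42 and 8.55 ± 0.44, or 454-fold and 375-fold (limma, adjusted p = 6.30e-10 and 2.35e-09). Tnni3, the adult cardiac troponin I, was also high at this age, with hearts from 25445 to 31464, kidneys from 10 to 68.4 and lungs from 174 to 413. Tnnt2, cardiac troponin T, was 852-fold above kidney and 46.1-fold above lung, and Tnnc1, the troponin C of heart and slow muscle, 218-fold and 43.5-fold. Actc1, cardiac actin, had a heart mean of 39173 ± 3549 (SD, n = 4) and lungs at 1989, 3137, 5540 and 5338, so that its difference from lung, 3.40 ± 0.40, was well below that from kidney, 7.32 ± 0.38.

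Acta1, skeletal alpha-actin, was the thin filament gene that did not pass. Its hearts were at 3214, 3381, 3368.5 and 2820, and its lungs at 162, 230, 5182 and 3718. Lungs 3 and 5 lay above every heart, and the difference from lung was 1.74 ± 1.03 (limma, adjusted p = 0.182). The same lungs had Tnnt3, the fast skeletal troponin T, at 559 and 307, against 77.2 and 66.1 on lungs 1 and 2. The mean level of the 18 skeletal muscle genes tested ranged from 6.47 to 9.05 on the lungs, from 7.54 to 7.87 on the hearts and from 5.72 to 6.27 on the kidneys (log2). The part of skeletal muscle RNA in the lung comparison was not tested.

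The Z-disc, titin and M-band list gave 26 of 28 genes higher and none lower, with medians of 6.06 and 5.32. Ttn, the giant spring between Z-disc and M-band, had heart signals of 32514, 34345, 30577 and 34540, kidneys from 16.7 to 87.4 and lungs from 252 to 1041. It stood 530-fold above kidney and 52.2-fold above lung. Myom2, an M-band linker, had hearts from 24105 to 26540 and was 185-fold and 151-fold higher on the probe set used. Its 4 probe sets ranged from -0.01 to 8.09 against kidney and from -0.04 to 8.10 against lung (log2). Actn2, the alpha-actinin that crosslinks actin at the Z-disc, was 398-fold and 77.6-fold higher, and Myoz2, the calcineurin-binding calsarcin of the Z-disc, 172-fold and 83.4-fold. Smyd1, a muscle methyltransferase needed for sarcomere assembly, had a heart mean of 8194 ± 920 (SD, n = 4) and kidneys at 2.1 to 23.8. The 6 Smyd1 probe sets ranged from 0.20 to 8.36 against kidney and from 0.14 to 6.415 against lung (log2). The members that did not pass against both organs were Myot (2.31 from kidney, 0.59 from lung) and Myl12a (0.66 and 0.03).

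**Figure D2:**
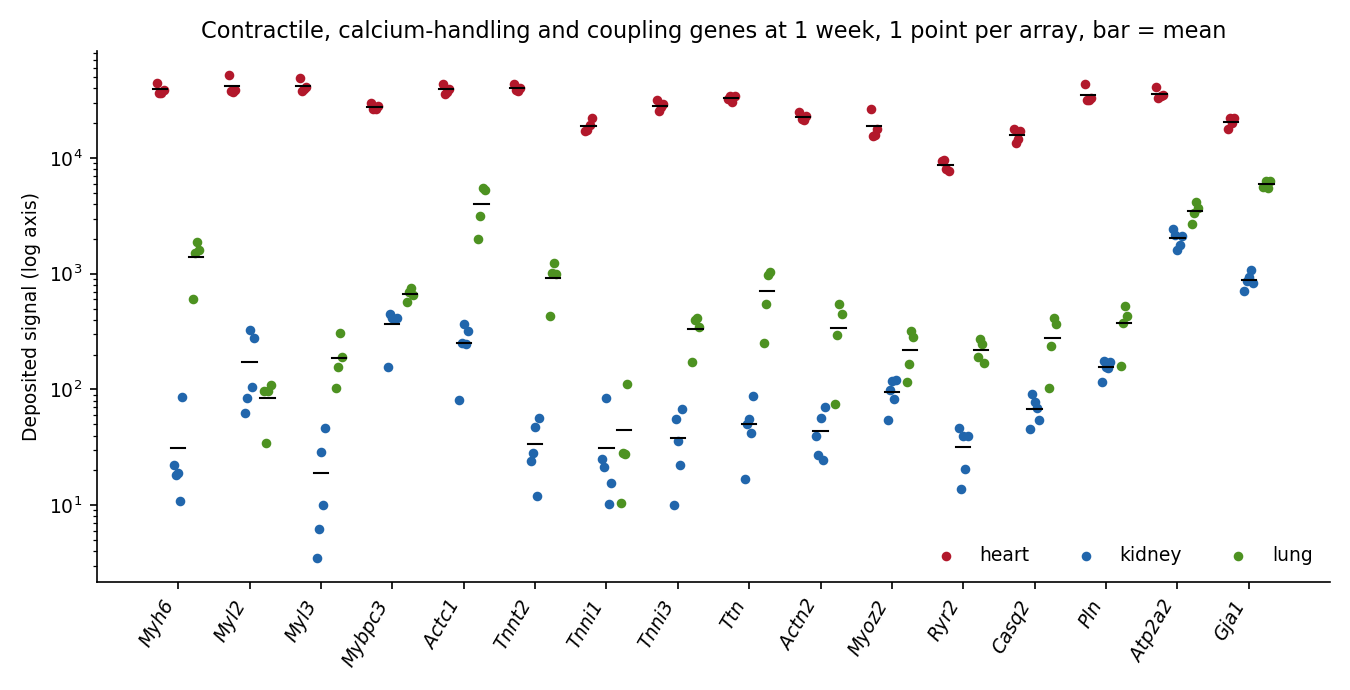
Deposited signal on a log axis of 16 genes, 1 point per array, for the 4 hearts, 5 kidneys and 4 lungs of 1 week; black bars are group means. The hearts of each gene lie in a narrow band above all other arrays, and the lungs lie above the kidneys for most sarcomere genes but not for Myl2, where lungs reach 110 and kidneys 325.

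Calcium handling was more mixed: 19 of 23 genes were higher in heart and none was lower than both, with medians of 2.09 and 1.81. Pln, phospholamban, the brake on the calcium pump of the sarcoplasmic reticulum, had hearts at 43456, 31896, 32026 and 33027, kidneys from 116 to 176 and lungs from 158 to 522. It was 205-fold above kidney and 97.1-fold above lung. Ryr2, the calcium release channel, had hearts from 7664 to 9627 and differences of 7.55 ± 0.22 and 5.22 ± 0.23. Casq2, the calcium store protein calsequestrin, and Trdn, the triadin that ties it to the channel, were 191-fold and 188-fold above kidney and 59.2-fold and 64.8-fold above lung. Atp2a2, the pump itself, is used in most tissues, and had a heart mean of 35946 ± 3530 (SD, n = 4) against 2017 ± 330 (SD, n = 5) in kidney and 3465 ± 611 (SD, n = 4) in lung.

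Slc8a1, the sodium-calcium exchanger, ran the other way on the probe set used. Its hearts were at 139, 192, 91.7 and 118, its kidneys from 718 to 1566 and its lungs from 106 to 137, a heart minus kidney difference of -2.90 ± 0.23 (limma, adjusted p = 1.37e-07). The probe sets of the gene disagreed: with the mean of all of them the difference from kidney was 0.20 (adjusted p = 0.324) and that from lung 1.77 (adjusted p = 5.68e-07).

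Of the ion channels and gap junctions, 15 of 21 were higher in heart than in both organs and none was lower than both (medians 2.75 and 2.06). Kcne1, the beta subunit of the slow delayed rectifier potassium channel, had hearts at 4260, 4079, 4979 and 5671, kidneys from 100 to 127 and lungs from 7 to 14.4, and Kcnq1, the pore subunit it joins, was only 2.6-fold and 3.2-fold higher. Kcnip2, a subunit of the transient outward potassium current, was 25.4-fold and 58.6-fold higher, and Gja1, the gap junction protein connexin of the ventricle, 23.0-fold and 3.5-fold, with lungs from 5487 to 6301. Popdc2 and Bves, the Popeye proteins of the heart muscle membrane, were 36.9-fold and 18.5-fold above lung. Among channel genes, 3 ran against the list in kidney: Kcnd3, a pore subunit of the transient outward current, had hearts from 157 to 227 and kidneys from 1191 to 1658, Kcnd2, the other, had hearts from 136 to 286 and kidneys from 360 to 542, and Scn4b, a sodium channel beta subunit, had hearts from 16.7 to 106 and kidneys from 581 to 793. Their differences from kidney were -2.77, -1.01 and -3.27.

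At the intercalated disc and costamere, where heart muscle cells are joined and tied to the matrix, 15 of 18 genes were higher (medians 2.66 and 2.69). Sgca, alpha-sarcoglycan, was 32.9-fold above kidney and 42.5-fold above lung, Nrap, a nebulin-related anchoring protein, 24.4-fold and 21.1-fold, and Cav3, the muscle caveolin, 32.2-fold and 18.4-fold. Jup, a plakoglobin of desmosomes, and Lmna, a nuclear lamin, were above kidney but did not pass against lung (0.08 and -0.31), and Vcl, vinculin, lay above kidney (0.54) and below lung (-0.52).

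The natriuretic peptides, hormones that the heart secretes, were higher in heart. Nppa, the atrial peptide, had hearts at 37097, 29321, 27526 and 27144, kidneys from 48.7 to 104 and lungs from 100 to 677, and was 339-fold and 110-fold higher. Nppb, the B-type peptide, had hearts at 14992, 3549, 3325 and 5888, so that heart 1 stood far above the other hearts. It was 24.4-fold and 24.3-fold higher, and without heart 1 the log2 differences were 4.14 and 4.13. Corin, the protease that activates the atrial peptide, was 3.3-fold above kidney and 33.1-fold above lung. In this list 5 of 8 genes were higher and none lower. Npr3, the clearance receptor, differed from kidney by 0.45 and from lung by -1.22.

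Among cardiac transcription factors 21 of 34 were higher and 3 lower (medians 1.74 and 0.97). Tbx20 had hearts at 6094, 8943, 7373 and 6828, kidneys from 3.5 to 90.9 and lungs from 102 to 282, and stood 146-fold and 38.7-fold above them. Nkx2-5, a homeobox factor that acts from the earliest heart field on, had hearts from 2416 to 3119 and was 16.4-fold and 11.6-fold higher, Gata4, a zinc-finger partner of it, 11.4-fold and 12.4-fold, Hand2 23.2-fold and 37.6-fold, and Myocd, the coactivator of serum response factor, 28.1-fold and 11.6-fold. Mef2a and Mef2c, whose sites were searched in the windows above, differed less from lung (1.6-fold each) than from kidney (3.9-fold and 3.6-fold). Tbx5, which is required in the heart and also in the lung, had hearts from 280.5 to 1145 and lungs from 601 to 1312, with a difference from lung of -0.69 ± 0.56 (limma, adjusted p = 0.331). Esrrg, a nuclear receptor of oxidative metabolism, had hearts from 768 to 902, below the kidneys at 1922 to 2372.5 and above the lungs at 41 to 79.2. The lower factors were Tbx2 (-2.30 and -3.93), Nr2f2 (-1.40 and -1.01) and Tbx3 (-0.74 and -2.38). Tbx3 lost its call against kidney without heart 1, heart 2, kidney 1 or kidney 5 (adjusted p from 0.0564 to 0.0829), with the replicate number as a block (0.0688) and under both other scalings, and Nr2f2 lost its call against lung without heart 1 or lung 5 (0.0518 and 0.0511).

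Of the 16 fetal isoform genes, many of them named above, 11 were higher and 1 lower (Tagln, transgelin of smooth muscle). Chamber genes differed in their level in the other organs. Of the atrial list 9 of 16 genes were higher and 1 lower (Nr2f2), and of the ventricular list 9 of 11 were higher and none lower. Myl7, the atrial regulatory light chain, had hearts at 23695, 18970, 18526 and 16511, kidneys from 5 to 77.9, and lungs at 936, 2051, 2652.5 and 2206. Sln, sarcolipin, an atrial regulator of the calcium pump, had hearts from 6915 to 10642, kidneys from 4.9 to 33 and lungs from 238 to 1073. Myl4, the atrial essential light chain, had lungs from 599 to 1385 and kidneys from 73.9 to 119. So on all 4 lungs these atrial transcripts lay above every kidney, and the lung minus kidney difference was 5.39, 4.04 and 3.30 for Myl7, Sln and Myl4 (limma, adjusted p under 0.05 for each, as for 22.7% of all genes tested). The ventricular Myl2 (lungs 34.7 to 110), Irx4 (lungs 5.5 to 38.3, kidneys 12.5 to 84.2, hearts 1280 to 1524) and Kcne1 (lungs 7 to 14.4, kidneys 100 to 127) did not lie above kidney in lung, whereas Myl3 (lungs 102 to 305, kidneys 3.5 to 46.2) and Myh7 did. Nor did every atrial gene: Kcnj5, a subunit of the acetylcholine-gated potassium channel, was lower on the lungs than on the kidneys. This pattern was picked after the values were seen, and the source of these transcripts on the lung arrays was not tested.

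**Figure D3:**
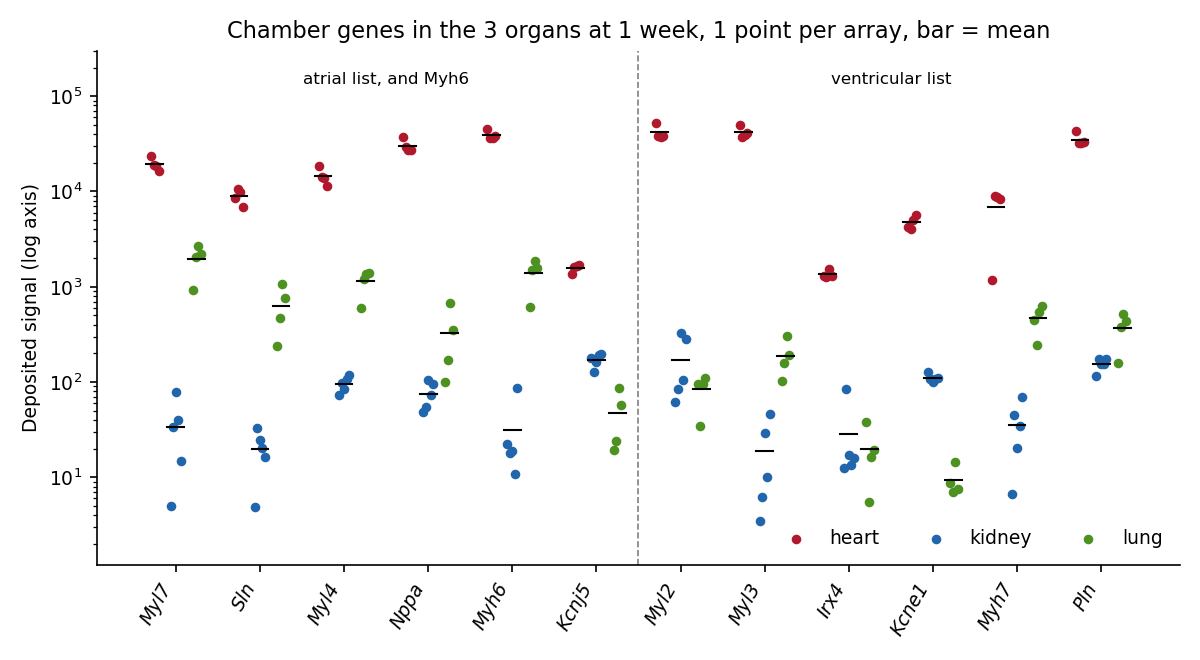
Deposited signal on a log axis of atrial genes with Myh6 (left of the dashed line) and ventricular genes (right), 1 point per array at 1 week; black bars are group means. Myl7, Sln, Myl4 and Myh6 are higher on all 4 lungs than on any kidney, as are Myl3 and Myh7, while Kcnj5, Myl2, Irx4 and Kcne1 are not, and heart 1 is low in Myh7 at 1182.

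Genes of energy metabolism were higher by smaller factors. Among 48 oxidative phosphorylation genes 47 were higher in heart than in both organs and none lower, with medians of 1.13 from kidney and 2.28 from lung, and 33 of them passed 2-fold. Quantile normalization gave 38 higher and 7 at 2-fold, with medians of 0.60 and 1.83, and without heart 1 there were 26 at 2-fold. Atp5g1, a c-ring subunit of ATP synthase, had hearts at 31141, 17534, 17152 and 20525, kidneys from 4075 to 8193 and lungs from 1160 to 1444. Of 21 TCA cycle genes 20 were higher and none lower, Cs, citrate synthase, being 4.2-fold above kidney and 6.0-fold above lung, and Ogdh 3.7-fold and 5.5-fold.

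Fatty acid oxidation gave 23 of 25 genes higher and none lower (medians 1.34 and 2.73). Pdk4, the kinase that inhibits pyruvate dehydrogenase, had hearts at 4275, 6478, 8141 and 5350. Its kidneys ran from 572 to 913 and its lungs from 138 to 356, so that it was 7.6-fold and 24.8-fold higher. Fabp3, the fatty acid carrier of heart, was 11.4-fold above kidney and 67.8-fold above lung, and Hadhb, of the mitochondrial trifunctional protein, 4.0-fold and 5.5-fold. Ppargc1a, a coactivator of mitochondrial genes, had hearts from 2410 to 8847 and was 4.0-fold and 24.3-fold higher. With the letter case as a block, which leaves heart 1 alone against the kidneys, its difference from kidney went from 1.99 to 1.06 and did not pass. Cpt1a, the liver-type carnitine palmitoyltransferase that the newborn heart also uses, was the exception with its hearts at 2279 to 3221 below all kidneys (5012 to 5652) and a difference from lung of -0.16 (limma, adjusted p = 0.271). With the mean of all its probe sets Cpt1a was lower than lung as well (-0.85, adjusted p = 0.0373).

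Energy transfer genes were the steepest of the metabolic lists, with 20 of 23 higher and none lower (medians 3.51 and 3.32). Ckmt2, the mitochondrial creatine kinase of muscle, had hearts at 21200, 18659, 16973 and 19717, kidneys from 4 to 33.8 and lungs from 39.9 to 139, and was 596-fold and 192-fold higher. Mb, myoglobin, the oxygen store of muscle, was 1078-fold and 150-fold higher, and Ckm, the muscle creatine kinase, 147-fold and 52.0-fold, on the probe sets used. The other probe set differed by 0.15 and 0.72 (log2) for Mb, and by 0.72 and 0.72 for Ckm. The muscle subunits of cytochrome oxidase Cox6a2 and Cox8b were 138-fold and 62.2-fold above kidney. Ldhb did not differ from kidney beyond the spread (0.20 ± 0.15, limma, adjusted p = 0.320) and turned to -0.39 after quantile normalization (adjusted p = 0.0341). In glycolysis 12 of 18 were higher and none lower, led by the muscle isoforms Eno3 (75.0-fold and 40.3-fold) and Pgam2 (11.4-fold and 56.0-fold), and Slc2a4, the insulin-responsive glucose carrier, was 5.9-fold and 7.2-fold higher. Of 11 genes of ketone and lactate use 7 were higher, and Oxct1, which starts ketone breakdown, was not (0.24 from kidney, adjusted p = 0.281, and 1.62 from lung).

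What the heart lacked was led by epithelium. Of 24 epithelial genes 23 were lower in heart than in both organs and none higher, with medians of -3.15 and -2.85, and 22 passed 2-fold. Cdh1, E-cadherin, which joins epithelial cells, had hearts at 16.9, 63.5, 12.4 and 49.8, kidneys from 3679 to 6086 and lungs from 4937 to 5550. It was 97.6-fold and 109-fold lower (-6.61 ± 0.27 and -6.77 ± 0.29, limma, adjusted p = 1.46e-10 and 3.72e-10). Epcam had hearts from 8.8 to 14.3 and was 174-fold and 37.8-fold lower. Muc1, a surface mucin, had hearts from 3.9 to 17.9, kidneys from 1376 to 1603 and lungs from 3432 to 3789. Npnt, the nephronectin of epithelial basement membranes, had hearts from 105 to 187, kidneys from 10058 to 16353 and lungs from 14184 to 15925, and Napsa, an aspartic protease of alveolar cells and kidney tubules, was 131-fold and 76.7-fold lower. Genes of a single organ mostly differed from that organ alone: all 21 kidney tubule and podocyte genes were below kidney (27% of all genes were) but 6 were below both, and 22 of 23 lung epithelial genes were below lung (29.4% of all, while 19.6% of all were above it and 20.7% above kidney) but 5 below both.

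The basement membrane split by chain. Col4a4 and Col4a3, the collagen IV chains of glomerular and alveolar membranes, were lower by 5.44 and 3.41 than in kidney and by 5.47 and 3.44 than in lung on the log2 scale. Col4a1 and Col4a2, the chains found in most basement membranes, had heart means of 21844 ± 1403 and 11467 ± 667 (SD, n = 4) and differences between -0.09 and 0.23, none of which passed. Of 39 collagen and matrix genes 11 were higher and 2 lower, led by Lum, lumican, with hearts from 5290 to 6406, 5.3-fold above kidney and 8.3-fold above lung, and by Dcn, decorin, 2.4-fold and 7.7-fold. Quantile normalization gave 11 higher and 6 lower in this list. Xenobiotic metabolism had 13 of 27 genes lower and 1 higher.

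Markers of other cell types were called in both directions. Over all genes tested 12.3% were higher and 15.3% lower than both organs, and several counts below lie near those shares. Against kidney alone 20.7% of all genes were above and 27% below, and against lung 19.6% and 29.4%. Of 25 endothelial genes 5 were higher and 4 lower (Aqp1, Car4, Ednrb and Emcn). Against kidney alone 19 of them were above and 4 below, and against lung 5 and 13. Tcf15, a factor of the endothelium in heart and muscle, had hearts at 835, 1104, 1332 and 1467, kidneys from 138 to 230 and lungs from 172 to 295, and Fabp4, a fatty acid carrier, was 3.2-fold and 22.2-fold higher. With the letter case as a block, which leaves heart 1 alone against the kidneys, the Fabp4 difference from kidney was 1.69 and did not pass. Cd36, the fatty acid translocase, was 26.7-fold above kidney but 1.8-fold above lung, and that last difference did not pass after quantile normalization (adjusted p = 0.109). Meox2, which works with Tcf15, lay between the others, with hearts from 961 to 1416, kidneys from 14 to 67 and lungs from 3157 to 3823. Of 21 epicardial and fibroblast genes 5 were higher and 4 lower, with Tbx18, an epicardial factor, 7.0-fold and 5.3-fold higher and Pdgfra, a growth factor receptor of fibroblasts, lower (-1.24 and -0.85). Of 15 macrophage genes 14 did not differ from both and Csf1r was lower (-0.28 and -0.76), a call lost against kidney when arrays were centred on their median (adjusted p = 0.689) and without heart 3 (0.0589). Of 14 B-cell, T-cell and MHC class II genes 5 were lower, among them H2-Ab1, an antigen-presenting chain, with hearts from 50.9 to 211, kidneys from 669 to 1393 and lungs from 1005 to 1863. Of 14 smooth muscle and pericyte genes 4 were higher and 3 lower. Of 12 endocardial genes none was higher and 2 were lower, of 7 conduction genes 1 and 3, and of 18 skeletal muscle genes 4 and 1. Of 6 erythroid genes the counts were 1 and 0, of 7 adipocyte genes 2 and 0, and of 14 liver genes 0 and 1. Of 5 thymocyte genes none was called either way. Against a single organ some lists went further from the shares of all genes. Of the endocardial genes 9 were above and 2 below kidney, and 0 were above and 7 below lung. In the same order, macrophage genes gave 6, 1, 0 and 9. B-cell, T-cell and MHC class II genes gave 1, 5, 0 and 13, and liver genes 0, 8, 0 and 1.

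Few cell cycle genes were called in the same direction against both organs. Of 58, 52 were not, 3 were higher and 3 lower (12.3% and 15.3% of all genes tested), with medians of 0.35 and -0.04. Against kidney alone 12 were above and 4 below, and against lung 4 and 10. Gmnn, a higher one, and Ccnd1, a lower one, lost their lung calls with each pair of organs fitted separately (limma, adjusted p = 0.0728 and 0.0737). The Gmnn call was also lost when heart 1 (limma, adjusted p = 0.12), heart 4, any lung or any of kidneys 1 to 4 was left out. The Ccnd1 call was lost without heart 2, 3 or 4 or any lung, and with arrays centred on their median (-0.15, limma, adjusted p = 0.43). Mcm6, another lower one, lost both calls with arrays centred on their median (0.193 and 0.13). Mki67, a marker of cycling cells, had hearts at 3434, 1407, 747 and 972, kidneys from 943 to 1869 and lungs from 1539 to 2134, so that heart 1 was above and heart 3 below every other array. Without heart 1, Mki67 was lower in heart than in lung (-0.84, limma, adjusted p = 0.0183, against -0.40 with it). With the letter case as a block, which leaves heart 1 alone against the kidneys, its difference from kidney was 1.41, against 0.10. Top2a, a topoisomerase of dividing cells, had hearts at 2608, 1265, 1041 and 1073. The heart mean over the list ranged from 9.37 to 10.30 (log2), wider than in kidney, 9.21 to 9.58, or lung, 9.57 to 9.88. Without heart 1 the medians were 0.11 and -0.24, with 2 genes higher and 4 lower. Cenpa, a centromere histone, was 3.6-fold and 2.7-fold higher on the probe set used. Its 3 probe sets disagreed, from -0.01 to 1.85 against kidney and from -0.07 to 1.43 against lung. Ccnd2, a D-type cyclin, was 2.6-fold and 1.2-fold higher. The Ccnd2 call against lung was lost with the replicate number as a block (limma, adjusted p = 0.0693), and quantile normalization turned that difference to -0.04 (0.744). Cdk4, a partner of the D-type cyclins, differed by -0.60 and -0.43. Centring on the median ended both Cdk4 calls (-0.38, limma, adjusted p = 0.0564, and -0.25, 0.228). With the letter case as a block, so for heart 1 alone, the Cdk4 difference from kidney was -0.40 and did not pass.

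Growth genes were led by Igf2, the fetal growth factor expressed from the paternal allele. Its hearts were at 10879, 13708, 16002.5 and 14758, its kidneys from 1177 to 1907 and its lungs from 1260 to 2162. Every heart was above every other array, and the differences were 3.25 ± 0.20 and 3.05 ± 0.21, or 9.5-fold and 8.3-fold. Igf2r, which clears that factor, was 2.8-fold and 1.8-fold higher, and Grb10, an imprinted adaptor that restrains insulin signalling, 2.0-fold and 1.4-fold, the latter not past the threshold after quantile normalization (adjusted p = 0.754) or with the mean of all probe sets (0.146). Igfbp2, a binding protein of these factors, was 7.8-fold and 23.3-fold lower, with hearts from 97.6 to 263. In the whole list 5 of 27 genes were higher and 7 lower. Of 28 ribosomal protein genes 25 did not differ from both, 1 was higher and 2 lower as deposited, but quantile normalization, which moved their medians from 0.14 in both comparisons to -0.46 and -0.43, gave 22 lower and none higher, and centring on the median gave 4 higher and none lower.

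**Figure D4:**
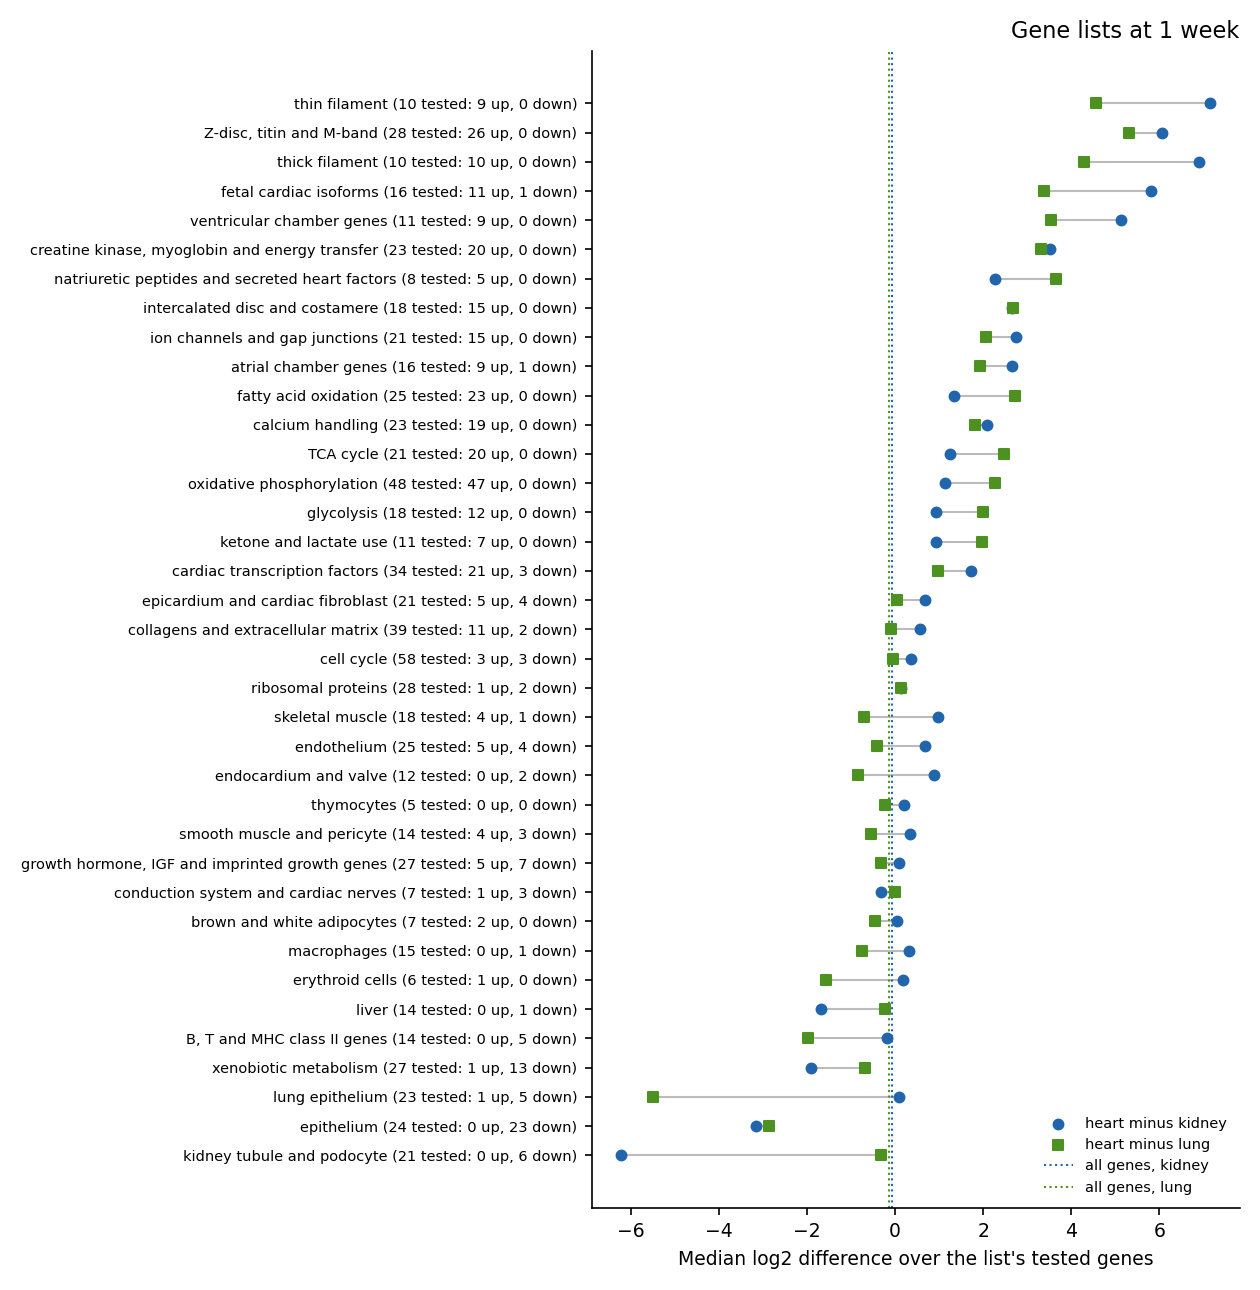
Median log2 difference over the tested genes of each list, heart minus kidney (circles) and heart minus lung (squares) at 1 week, with the number of genes tested, higher than both organs (up) and lower than both (down); dotted lines are the medians over all genes tested, -0.06 and -0.14. The contractile lists lie farthest to the right, up to 7.16, fatty acid oxidation, oxidative phosphorylation and the TCA cycle differ less from kidney than from lung, and epithelium lies at -3.15 and -2.85.

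The heart profile was then read in the 15 arrays of 4 weeks, which share no array with the first fit. The letter case of the descriptions was laid out alike at both ages. At 4 weeks heart 1 shared it with the kidneys, and the other hearts shared theirs with the lungs. Heart 1 of 4 weeks had a median signal of 145.4, against 155.7 to 176.2 on the other hearts. Its poly-A controls were at 12.58 (log2), against 11.29 to 11.57. The part of this layout in the repeat was not tested. Of the 784 genes at least 2-fold higher at 1 week, 762 were tested at 4 weeks and 715 were higher in heart than in both organs there (93.8%, against 15.7% of all genes tested at that age). Of the 754 lower genes, 607 of 730 tested were lower again (83.2%, against 19.3%). A single gene of the 784 changed sides, Bex1, a small adaptor protein: its hearts were at 6447, 5474, 5169 and 6346.5 at 1 week, above all kidneys (2161 to 3283) and lungs (773 to 1180.5), and at 341 to 413 at 4 weeks, where they lay 1.47 below kidney and 0.84 below lung (limma, adjusted p = 1.39e-08 and 8.68e-06).

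The size of the heart difference was compared between ages in 1 fit of 28 arrays. It was larger at 1 week for 424 genes (2.85% of 14857 tested) and smaller for 406 (2.73%), in the signed sense. Among the 784, it was larger for 37 and smaller for 79. Tnni1 led: its hearts fell from a mean of 19035 to between 16.6 and 41.1 at 4 weeks, and the difference shrank by 8.64 ± 0.45 against kidney and 7.87 ± 0.47 against lung (limma, adjusted p = 6.51e-13 and 2.77e-11), while Tnni3 hearts were at 38766 to 51348.5. Myh7 hearts at 4 weeks were at 728 to 875, and its difference was larger at 1 week by 3.03 and 2.21 (limma, adjusted p = 0.000435 and 0.0135). Heart 1 of 1 week, at 1182, lay near the later age for this gene. For Tnni1, Kcne1 and Bex1 it lay near the other hearts of 1 week. Kcne1 hearts fell to 414 to 855, and the transcription coregulator Cited1, at 321 to 680 at 1 week, was at 19.5 to 30.5. Mt3, a metallothionein, and Abca4, a lipid transporter, were also larger at 1 week, by at least 2.89 and 3.17 in each comparison. So was Lpar3, a lysophosphatidic acid receptor, whose heart mean went from 702 to 133 while lung went from 184 to 567.

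For other genes the heart difference was smaller at 1 week. Rpl3l, the muscle form of ribosomal protein L3, had hearts at 521, 348, 407 and 487 at 1 week and 4268 to 6025 at 4 weeks, with kidneys and lungs at 39.2 or less at 1 week, and its difference was smaller at 1 week (-3.06 against kidney and -3.60 against lung, adjusted p = 1.50e-05 and 5.63e-06). Kcnd2, below kidney at 1 week, had hearts from 923 to 1347 at 4 weeks and was then 4.07 above kidney and 4.72 above lung. Kcnd3 turned from -2.77 to 0.73 against kidney. Slc2a4 hearts lay between 2142 and 3183 at 1 week and between 6330 and 11336 at 4 weeks. The heart difference was also smaller at 1 week for Rgs5, a pericyte regulator of G-protein signalling (-2.20 and -1.81), and for Corin (-2.24 and -1.35).

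Not every such gene moved in the heart. Tgfbi, a matrix protein, had a heart mean of 870 at 1 week and 1229 at 4 weeks, but lung fell from 14836 to 2071. Pappa2, a protease that releases insulin-like growth factors, had heart means of 147 and 141, while kidney fell from 721 to 112 and lung from 1343 to 165. Lama1, a laminin chain of early kidney, fell from 1233 to 158 in kidney with hearts at 29.2 or less at both ages.

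**Figure D5:**
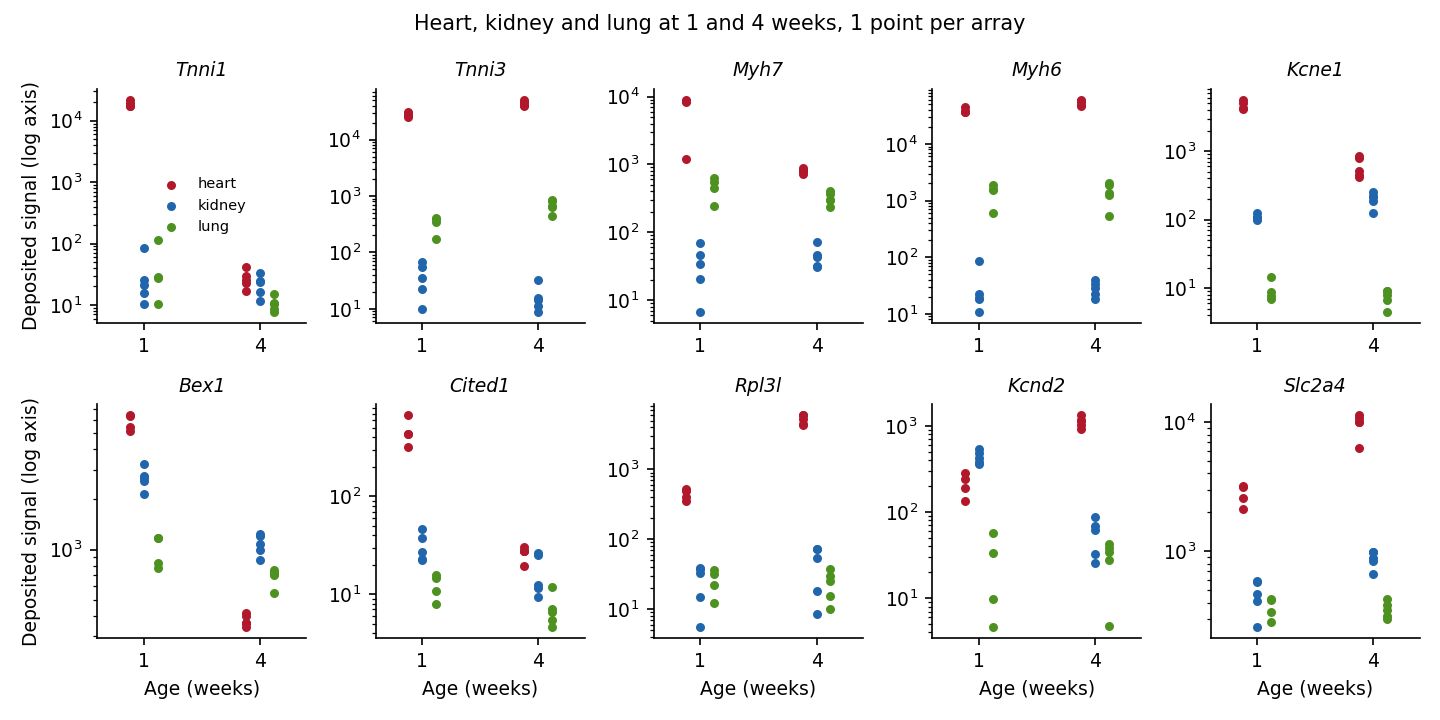
Deposited signal on a log axis, with a scale of its own in each panel, of 10 genes in heart, kidney and lung at 1 and 4 weeks, 1 point per array. Tnni1 and Cited1 hearts fall to at most 41.1 and 30.5 at 4 weeks, Bex1 hearts fall to 341 to 413, below the kidneys and lungs of that age, and Rpl3l, Kcnd2 and Slc2a4 hearts rise.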

How the data were processed

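Heart, kidney and lung RNA of male mice was hybridised as biotin-labelled cRNA, per the labels' protocols. The deposited values are linear intensity values. On each array their mean after trimming 2% at each end is close to 500, as read from the values, since no source states the scaling. RMA and Partek 6.6 are named in the submitters' processing notes, without a step, and the summary method is not given in the sources used here. There are no detection calls. Of 45101 probe sets, 34958 carry 1 gene symbol (18194 genes), 932 several and 9211 none, and only the first were used, with the probe set of highest mean over 40 arrays standing for its gene. Entrez identifiers matched to RefSeq changed 0 symbols. Unless stated, each difference named is that of the probe set used, and other probe sets of a gene can differ far less. The other probe set of Napsa, for example, gave -1.15 from kidney and -2.12 from lung.

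Signals were taken as log2(signal + 16). Genes entered a fit if at least 1 group averaged 117.9 or more (percentile 40 of the deposited values), which limits what dim signals can show. limma 3.58.1 in R 4.3.3 (lmFit, eBayes, group means) was fitted to the 13 arrays of 1 week, the 15 of 4 weeks, and both together for differences of differences, with the Benjamini-Hochberg adjustment in each comparison and a threshold of 0.05. A gene was called where it passed in the same direction against kidney and lung, and "2-fold" needs both log2 differences to be at least 1. The number of arrays limits the precision. Heart array 5 and lung array 4 of 1 week were left out of the main fits. Alternatives were other scalings, offsets, filters and probe set rules, blocks, all arrays as labelled and leaving out each array in turn. The fit was checked on simulated data.

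Genes named are the 25 highest and 15 lowest by the smaller of both differences, leading members of 37 lists (707 of 774 genes on the array), any member of the cardiac role lists, and the 8 largest differences between ages each way. Genes chosen after their values were seen are Fabp3, Meox2, Mki67, Top2a, Tnnt3, Jup, Lmna, Vcl, Oxct1, Col4a1, Col4a2 and Col4a3. The members and lists were chosen with earlier results of these data known. Promoter windows are from RefSeq (GRCm38.p6). R's data.table (version 1.17.8) read the files, and matplotlib 3.10.9 under Python 3.11.15 made the plots.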

Additional observations from a re-analysis of the deposited data

Results flagged for a closer look

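For 28 of 429 sets of arrays, over 143 genes in 3 organs, 1 array lay far from the others of its organ at 1 week, by the gap to its nearest neighbour as a share of the range, above Dixon's critical value. Chance gives about 1 in 20, or 21.4 such sets. Of the 28, 9 were in heart, 5 of them at heart array 1. The highest heart array stood apart, with its share of the range, for Myl2 (array 1, 0.916), Pln (array 1, 0.887), Tnnc1 (array 1, 0.87) and Irx4 (array 3, 0.861). The lowest heart array stood apart, with its share of the range, for Napsa (array 3, 0.88), Myh7 (array 1, 0.959), Esrrg (array 3, 0.926), Cd36 (array 3, 0.839) and Igf2r (array 1, 0.911). The highest kidney array stood apart, with its share of the range, for Myh6 (array 5, 0.733) and Irx4 (array 2, 0.883). The lowest kidney array stood apart, with its share of the range, for Npnt (array 3, 0.723), Tinag (array 5, 0.75), Cd248 (array 3, 0.715), Mybpc3 (array 1, 0.91), Actc1 (array 1, 0.731), Meox2 (array 1, 0.795), Des (array 1, 0.853) and Sftpc (array 1, 0.729). The highest lung array stood apart, with its share of the range, for Cdh1 (array 3, 0.915), Lama1 (array 5, 0.911), Ccnd1 (array 1, 0.916), Igfbp2 (array 1, 0.895) and Sgca (array 5, 0.866). The lowest lung array stood apart, with its share of the range, for Myl2 (array 2, 0.877), Egfl6 (array 1, 0.943), Myl4 (array 1, 0.846) and Esrrg (array 1, 0.847).

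The heart difference itself differed between 1 and 4 weeks for 30 named genes, by the interaction of organ and age against kidney and against lung in limma (adjusted p under 0.05 in each). The smaller of both log2 differences of differences was positive, a higher heart difference at 1 week, for Tnni1 7.87, Abca4 3.17, Lpar3 2.95, Cited1 2.93, Mt3 2.89, Kcne1 2.87, Bex1 2.60, Fabp1 2.60, Myh7 2.21 and Cpt1a 0.54. It was negative, a lower heart difference at 1 week, for Rpl3l -3.06, Tgfbi -2.84, Pappa2 -2.53, Tmem150c -2.42, Aoc3 -2.26, Trim45 -2.25, Lama1 -2.20, Cd248 -2.15, H2-Ab1 -1.95, Col4a4 -1.81, Rgs5 -1.81, Scn4b -1.39, Kcnd3 -1.38, Corin -1.35, Tpm1 -1.15, Kcnj8 -0.95, Itgb1bp2 -0.92, Csf1r -0.75, Slc25a4 -0.54 and Grb10 -0.47. Trim45 lost its call against lung with the replicate number as a block (-2.12, adjusted p = 0.063). Changes of the other organs enter these values as well.

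Arrays outside the comparisons also carried signal of another organ. Sftpc had a signal of 27186.8 on the array labelled heart 5, against 125 to 1072.5 on the other hearts, and Myh6 had 36022.4 on the array labelled lung 4, against 611 to 1868 on the other lungs.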

How the results depend on the processing

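Over single genes, 8480 values kept their side of the threshold under the alternatives run, and those called in the main fit also kept their direction. Uncalled values that changed sign are counted among them. A further 242 lost a call, many of them with all arrays as labelled, 12 gained one and 6 reversed. The reversed differences were Adgrg6 heart minus kidney with all arrays as labelled (0.38), Kcne1 between ages against lung as labelled (-0.18), Ldhb heart minus kidney (-0.39), Postn heart minus lung (-0.59) and Ccnd2 heart minus lung (-0.040) after quantile normalization, and Slc8a1 heart minus kidney with the mean of all probe sets (0.20). Centring each array on its median gave 1334 lower genes in place of 2188. With all arrays as labelled there were 0 genes higher and 0 lower by limma, at any fold and so none carried to 4 weeks (793 and 963 at an unadjusted p under 0.05), and 264 genes with a smaller heart difference at 1 week in place of 406. Adjusting the larger of both p-values gave 258 larger at 1 week in place of 424. The cause was not tested.

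Leaving out each array in turn gave 1570 to 1789 higher, 1984 to 2330 lower, 766 to 816 at least 2-fold higher, 720 to 795 at least 2-fold lower, 697 to 746 higher at both ages, 365 to 486 larger at 1 week and 366 to 499 smaller. Deviations of arrays with the same title number correlated between -0.12 and 0.44 (11 pairs, median 0.06). For arrays with the same number in their descriptions the range was -0.17 to 0.27 (5 pairs, median -0.04). Arrays with different numbers ranged from -0.30 to 0.13 (40 pairs, median -0.003). These overlapping ranges cannot tell whether either number pairs the arrays. With the replicate number as a block the counts in the same order were 1667, 2114, 773, 744, 707, 347 and 373. The letter case of the descriptions as a block was an alternative chosen after seeing the data. In the fit of 1 week it leaves heart array 1 alone against the kidneys, so its counts of calls at that age are not given. In the fit of both ages it gave 494 larger at 1 week and 472 smaller. Separate fits for each pair of organs were not run for the differences between ages. Without detection calls, signals near the filter of 117.9 cannot be told from background, and 4 to 5 arrays per organ limit the precision.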

Other observations

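Hox genes, which set position along the body axis, were examined after their values were seen and are described without a test of the group. Of 33 on the array 25 were tested, 9 were lower in heart than in both organs and 0 higher, with medians of -2.74 against kidney and -0.65 against lung (15.3% of all genes tested were lower than both). Of the 7 Hoxb genes tested 6 were lower. Hoxb5 had hearts at 10.4, 61.9, 17.7 and 15.3, kidneys from 286.5 to 500.9 and lungs from 625 to 939. Hoxb6 had hearts from 26.1 to 63.4, kidneys from 1211 to 1676 and lungs from 397 to 451. The hearts did not overlap the other organs for either gene.

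Other families looked at in the same way were the claudins of tight junctions, with 9 of 18 tested lower and 0 higher, and the Asb genes, whose proteins recruit ubiquitin ligases, with 9 of 17 higher and 2 lower (medians 1.35 and 1.51). Of 28 Klhl genes tested 8 were higher and 5 lower, of 5 Irx genes 1 and 2, and of 4 Plin genes 2 and 0. Over all genes tested 12.3% were higher and 15.3% lower than both organs, and some of these counts lie near those shares.

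At 4 weeks, heart array 2 was low in transcripts of the atrial list. Myl7 was at 2443 on that array and from 19216 to 24754 on the other hearts of that age. Sln was at 878, against 9974 to 13061, and Nppa at 10865, against 37798 to 47675. Bmp10, an atrial growth factor, was at 54.5, against 548 to 899. Myl2 on the same array, at 59407, lay within the range of the others, 44172 to 63459.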
